A study of Mus musculus with 8 samples.

Results

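Among the small RNAs of mouse testes, 19181 distinct sequences of 34, 35 or 36 nt were longer than the range of 19 to 33 nt to which the total RNA had been size selected, per the labels. They were chosen by length alone and formed 0.307% of the 6246223 distinct sequences in a list pooled over the whole study. They comprised 15278 sequences of 34 nt, 3382 of 35 nt and 521 of 36 nt, the longest length listed. At 33 nt, the upper end of the labelled range, 47067 sequences were listed. No read numbers, library, strand or coordinate came with the sequences, so every value counts distinct sequences and none measures the abundance of an RNA. C followed by T was found at positions 33 and 34 in 0 of the 19181, so the lengths above 33 nt, on which every result here rests, come with an uneven set of 3′ ends that is described last.

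The libraries came from testes of Tdrd6 mutants, homozygous or heterozygous, aged 18 days, 25 days or 6 weeks, and of embryos homozygous or heterozygous for the Tdrd1 mutation, taken 18.5 days after conception. There were 8 groups with 1 library each. All 8 thus carried at least 1 mutant copy. The labels state neither the alleles, the strain nor the number of animals per library. Homozygotes could not be compared with heterozygotes, nor ages with each other, since the list pools all libraries. The labels name whole testis, so the cell type behind a sequence could not be told. Sequencing depth was unknown and there were no replicates. The 95% intervals given in parentheses are exact (Clopper-Pearson) and cover counting error only, and overlapping fragments of 1 RNA are not independent observations.

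Piwi proteins of male germ cells bind piRNAs, which are made from long single-stranded precursor transcripts and usually begin with U, written T in these sequences. The 5′ end of a piRNA is set when its precursor is loaded into the Piwi protein, and exonucleases then shorten its 3′ end to the length that the protein shields. MILI and MIWI, the main Piwi proteins of the neonatal and adult mouse testis, hold shorter and longer piRNAs, and MIWI2 acts in fetal germ cells. Tdrd1 and Tdrd6 encode Tudor-domain proteins that bind Piwi proteins through methylated arginines. Ribosomal RNA, transfer RNA and other structural RNAs are abundant, and their fragments reach small-RNA libraries without a Piwi protein.

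Sequences that mapped to 1 position and matched 1 annotated gene serve as examples. The sets below were picked, after their values were seen, among those with several members on 1 start, and from coding genes only within the coding sequence. Sets with most members were taken, and ties went to those with most listed shorter versions. Ash1l was picked among mRNA sets without any shorter version. Their numbers of shorter versions thus follow from the choice and do not describe the collection. The first 24 nt are in capitals, since this stretch was used to ask whether a shorter sequence of the list began at the same base. The genes are those of GENCODE release M21 on GRCm38, and the build used by the authors was not given in the sources used here.
Gm14244 34 nt: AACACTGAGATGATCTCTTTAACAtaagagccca
Gm14244 35 nt: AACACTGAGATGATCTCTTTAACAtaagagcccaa
Gm14244 36 nt: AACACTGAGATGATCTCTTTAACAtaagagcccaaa
D130017N08Rik 34 nt: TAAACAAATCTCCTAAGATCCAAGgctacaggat
D130017N08Rik 35 nt: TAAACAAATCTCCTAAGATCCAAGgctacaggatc
1700006A11Rik 34 nt: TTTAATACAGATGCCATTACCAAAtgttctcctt
1700006A11Rik 35 nt: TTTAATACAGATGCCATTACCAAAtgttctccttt
Aym1 34 nt: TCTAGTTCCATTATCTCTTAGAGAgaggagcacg
Aym1 35 nt: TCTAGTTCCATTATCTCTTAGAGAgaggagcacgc
Ash1l 34 nt: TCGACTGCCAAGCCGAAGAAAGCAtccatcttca
Ash1l 35 nt: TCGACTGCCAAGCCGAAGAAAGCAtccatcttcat
Rny1 34 nt: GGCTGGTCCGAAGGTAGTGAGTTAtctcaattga
Rny1 35 nt: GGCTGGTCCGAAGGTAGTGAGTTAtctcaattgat
Gm49794 35 nt: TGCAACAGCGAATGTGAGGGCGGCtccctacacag
Gm49794 36 nt: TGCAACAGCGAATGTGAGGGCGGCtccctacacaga

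The Gm14244 and D130017N08Rik sequences carried no annotation in the list. They lay in noncoding genes, on chromosome 2 (127691899 to 127700488, plus strand) and chromosome 5 (143758354 to 143768575, plus strand). At each of these starts the list also held all 10 shorter versions, from 24 to 33 nt, each ending 1 nt before the next. The unannotated 1700006A11Rik sequences lay in coding sequence on chromosome 3 (124400989 to 124426040, minus strand), and 7 of the 10 shorter versions were listed. Aym1, annotated by its mRNA accession (chromosome 5, 113357294 to 113357821, plus strand), also had 7. Ash1l, which encodes a histone methyltransferase (chromosome 3, 88950622 to 89079375, plus strand), had 0, although both of its sequences began with T. Rny1 encodes the small noncoding Y1 RNA (chromosome 6, 47788069 to 47788180, minus strand) and had all 10 shorter versions, with G as first base. The Gm49794 sequences (chromosome 17, 27354111 to 27367492, plus strand) were annotated to IAPLTR2_Mm, a long terminal repeat of an IAP retrovirus-like element, and also had all 10.

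Unannotated sequences formed the largest class and structural RNAs were over-represented relative to the piRNA-length sequences of 24 to 33 nt. Unannotated sequences made up 53.3% (52.6 to 54.0) of the 34 to 36 nt sequences, against 50.4% of those of 24 to 33 nt. Repeat names made up 30.2% (29.5 to 30.8), against 32.5%. RefSeq mRNA accessions made up 8.06% (7.68 to 8.45), against 16.3%. Ribosomal RNA made up 5.40% (5.08 to 5.73), against 0.380%. Transfer RNA made up 1.53% (1.36 to 1.71), against 0.169%. Other named RNAs, such as small nucleolar and spliceosomal RNAs, made up 1.58% (1.41 to 1.77), against 0.283%. For every 1000 sequences of 24 to 33 nt there were 55.8 overlong ones in ribosomal RNA, 35.4 in transfer RNA, 21.9 in other RNAs, 4.15 among unannotated sequences, 3.65 in repeats and 1.95 in mRNA accessions.

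The composition changed with each added base. Ribosomal RNA gave 530 of 15278 sequences at 34 nt (3.47%), 354 of 3382 at 35 nt (10.5%) and 151 of 521 at 36 nt (28.98%). It had been 0.32% at 30 nt and 1.60% at 33 nt, so the increase had begun within the selected range. Unannotated sequences gave 59.2% at 33 nt, 55.9% at 34 nt, 44.5% at 35 nt and 34.7% at 36 nt. The mRNA share stayed between 7.97% and 8.49% from 34 to 36 nt. Transfer RNA gave 2.31% at 35 nt but 3 of 521 sequences at 36 nt.

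**Figure D1:**
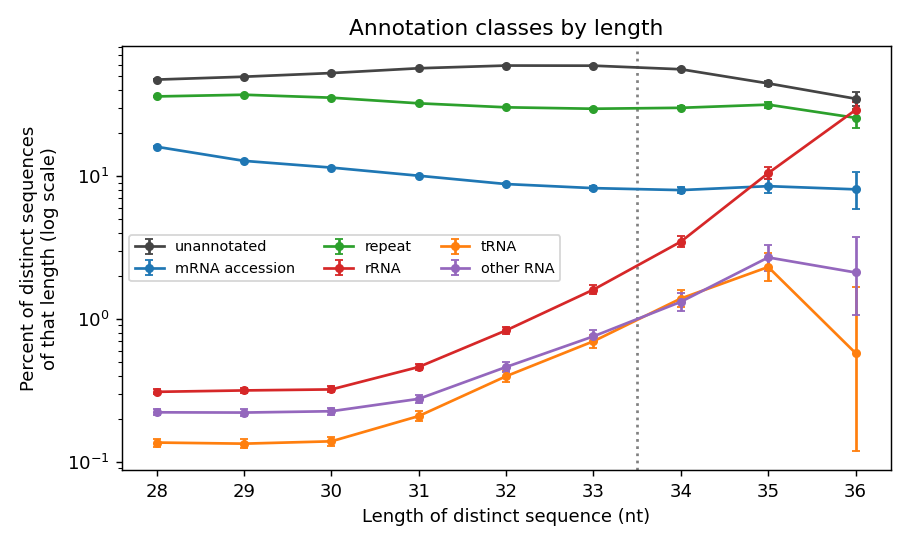
Share of each annotation class among the distinct sequences of each length from 28 to 36 nt, on a log scale, with exact 95% intervals as bars; the dotted line marks the end of the labelled size range. Ribosomal RNA climbs to 28.98% at 36 nt, while unannotated sequences fall to 34.7%.

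The first base separated the classes, and the T preference of mRNA sequences weakened with length. T came first in 77.4% (76.6 to 78.2) of unannotated sequences of 34 to 36 nt, against 69.4% at 24 to 33 nt. It came first in 65.4% (64.2 to 66.6) of repeat sequences, against 71.2%, and in 58.7% (56.2 to 61.1) of mRNA sequences, against 78.4%. Ribosomal RNA showed no strong first base, with 26.5% each for T and A, 23.7% for C and 23.4% for G, and T was first in 31.1% at 24 to 33 nt. In transfer RNA T was first in 32.8% (27.4 to 38.5), against 31.6%. In other RNAs it was first in 32.7% (27.4 to 38.3), against 47.3%.

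By length, the T share of mRNA sequences was 81.3% at 30 nt, 78.9% at 31 nt, 72.8% at 32 nt, 67.1% at 33 nt, 61.3% at 34 nt, 49.5% at 35 nt and 45.2% at 36 nt, the last from 19 of 42 sequences. T was still the most frequent first base of mRNA sequences at 36 nt, where A and C began 9 each. The unannotated share was 72.3% at 30 nt, 77.1% at 33 nt, 77.8% (76.9 to 78.7) at 34 nt, 75.1% (72.8 to 77.2) at 35 nt and 76.8% (69.96 to 82.7) at 36 nt, above its value at 30 nt throughout. The 2 classes thus crossed between 31 and 32 nt. Repeat sequences had 66.7% at 34 nt and 59.5% (56.4 to 62.4) at 35 nt, and 89 of 133 at 36 nt (66.9%, 58.2 to 74.8). Over all classes the share was 70.1% at 34 nt, 61.2% at 35 nt and 55.7% at 36 nt.

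**Figure D2:**
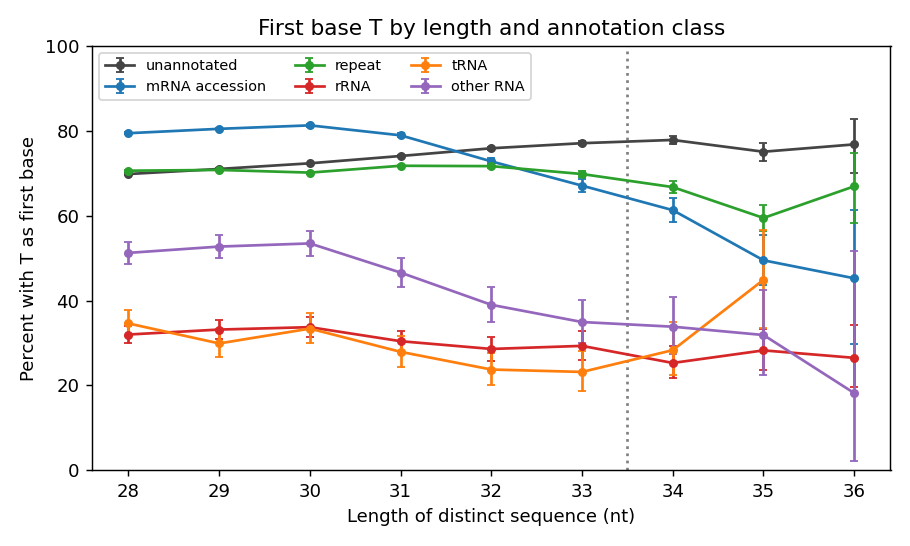
Share of distinct sequences with T as first base by length, one line per annotation class, with exact 95% intervals as bars; points from under 10 sequences are left out and the dotted line marks the end of the labelled size range. The mRNA line falls to 45.2% at 36 nt while the unannotated line stays at 76.8%.

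Position 10 carried a second preference in repeats. A stood at position 10, the base that pairs with the first T of a partner made by reciprocal (ping-pong) cleavage, in 40.9% (39.6 to 42.2) of repeat sequences of 34 to 36 nt, against 36.6% at 24 to 33 nt. It stood there in 31.4% (30.5 to 32.3) of unannotated sequences, against 28.5%, and in 24.4% (22.3 to 26.6) of mRNA sequences, against 25.8%. Among repeat sequences that did not start with T the share was 49.7%, against 36.2% of those that did. Unannotated sequences showed the same contrast, with 41.4% and 28.5%, and in mRNA sequences the shares were 25.4% and 23.7%, with overlapping intervals.

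Most overlong sequences had a single genomic position, and those of repeats more often had very many. A single position was recorded for 89.5% (88.9 to 90.1) of unannotated sequences, against 89.9% at 24 to 33 nt, and for 98.1% (97.3 to 98.7) of mRNA sequences, against 98.4%. For repeats the share was 56.4% (55.1 to 57.6), against 60.5%. Over 1000 positions were recorded for 9.71% (8.96 to 10.5) of repeat sequences, against 4.46%, although a longer sequence can match no more positions than its own start. The highest number was 43921 positions in repeats and 105519 in unannotated sequences.

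Structural RNAs mapped to several positions in many cases. A single position was recorded for 40.3% (37.3 to 43.4) of ribosomal RNA sequences. The share was 36.2% (30.7 to 41.97) for transfer RNA sequences and 65.7% (60.03 to 71.0) for other RNAs. At 24 to 33 nt the shares were 39.6%, 43.9% and 65.5%. The median was 2 positions in ribosomal RNA and 3 in transfer RNA, and the highest values were 50 positions and 14 positions. In mRNA sequences the highest value was 16 positions.

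Most of these sequences began where a shorter listed sequence began. The first 24 nt of 77.8% (77.2 to 78.4) of them, 14931 in all, were also the start of a listed sequence of 24 to 33 nt. The share was 85.1% (84.4 to 85.8) in unannotated sequences, 74.2% (73.0 to 75.3) in repeats and 31.4% (29.1 to 33.8) in mRNA accessions. Fragments of ribosomal RNA had 95.1% (93.6 to 96.3), fragments of transfer RNA 89.1% (84.9 to 92.4) and other RNAs 70.6% (65.1 to 75.7). The sequences of 31 to 33 nt were set against listed sequences of any other length from 24 to 33 nt, longer ones included. They had 81.5% in unannotated sequences, 68.2% in repeats, 39.95% in mRNA accessions and 95.1% in ribosomal RNA.

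A dense list can supply a shared start at any base, so the same question was put to the bases 1 to 10 nt downstream of the true start. Their mean was 61.1% in unannotated sequences, 49.2% in repeats and 12.4% in mRNA accessions, below the true start in each of the 3 classes, whose highest downstream values were 67.5%, 55.3% and 15.3%. In ribosomal RNA the mean was 94.0%, 1.07 percentage points below the true start, so nearly every base of it began a listed sequence. Transfer RNA had 76.5% and other RNAs had 63.2%, and in other RNAs the highest downstream value, 71.6%, was above that of the true start. The downstream bases were not matched to the true starts for T, which began most listed sequences. Of sequences that did not start with T, 65.1% of unannotated, 62.2% of repeat and 11.9% of mRNA ones had a shared start. Of those that did, the shares were 90.9%, 80.5% and 45.2%. The part of the first base in the difference was not tested.

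**Figure D3:**
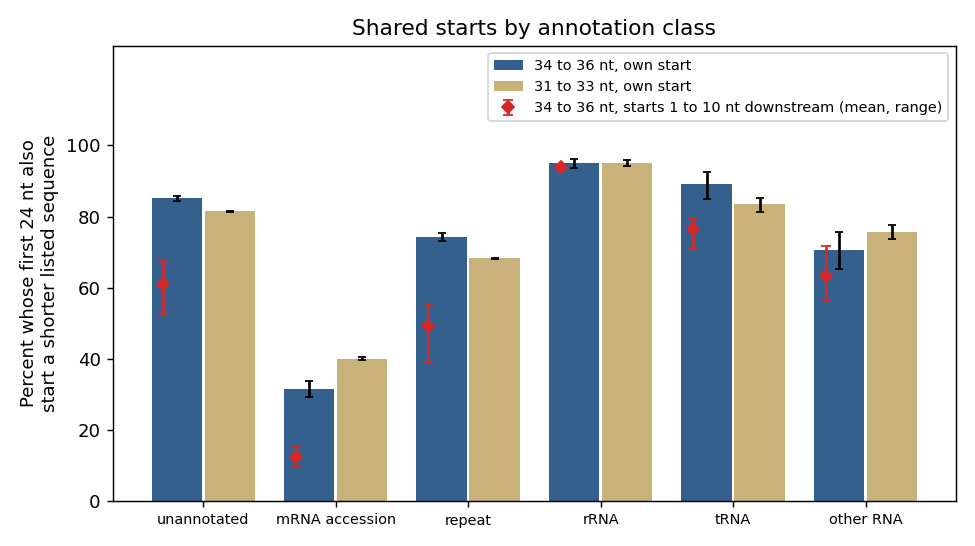
Share of sequences whose first 24 nt also start another listed sequence of 24 to 33 nt, with exact 95% intervals. Left bars are sequences of 34 to 36 nt, for which all of these are shorter. Right bars are sequences of 31 to 33 nt, set against every other length of 24 to 33 nt, longer ones included. Diamonds give the mean and range for starts moved 1 to 10 nt downstream in the 34 to 36 nt sequences. The diamonds lie far below the bars for unannotated, mRNA and repeat sequences, and at 94.0% for ribosomal RNA.

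A shared start went with T as first base in the 3 large classes. In mRNA accessions T was first in 84.4% (80.8 to 87.5) of sequences with a shared start, against 46.9% (43.8 to 49.9) of those without. In unannotated sequences it was 82.7% (81.9 to 83.5), against 47.1% (44.5 to 49.6), and in repeats 71.0% (69.6 to 72.3), against 49.4% (46.9 to 52.0). Without a shared start the 3 classes thus lay between 46.9% and 49.4%. In ribosomal RNA T was first in 26.9% (24.2 to 29.8) of sequences with a shared start, against 9 of 51 without.

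Shared 3′ ends were less frequent than shared starts in unannotated, repeat and mRNA sequences. The last 24 nt were also the end of a listed sequence of 24 to 33 nt in 74.0% (73.1 to 74.8) of unannotated, 55.1% (53.8 to 56.4) of repeat and 17.9% (15.97 to 19.9) of mRNA sequences. In ribosomal RNA it was 94.7% (93.1 to 96.0), and in other RNAs 75.2% (70.0 to 80.0). Neither end was shared by 64.3% (61.8 to 66.7) of mRNA sequences, against 11.4% of unannotated ones.

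Shared starts usually came with several shorter versions that ended at different bases. Of the 14931 sequences, 14845 had at least 1 exact shorter version of 24 to 33 nt listed, and the median was 7 of the 10 possible lengths. All 10 were listed for 1950 sequences (13.1%, 12.5 to 13.6), of which 1386 were unannotated. The median was 7 in unannotated sequences, 6 in repeats and in transfer RNA, 5 in ribosomal RNA, 4 in other RNAs and 3 in mRNA accessions. The annotation was the same as that of a shorter sequence with the same start in 97.6% (97.3 to 97.8) of cases.

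The shorter versions were listed most often at 30 nt in unannotated and repeat sequences, and about equally at 27 and 30 nt in mRNA sequences. The version of 30 nt was listed for 79.6% (78.8 to 80.5) of unannotated sequences with a shared start, and the version of 27 nt for 74.5% (73.6 to 75.4). The version of 33 nt was listed for 43.0% (42.0 to 44.1) and the version of 24 nt for 50.6%. In repeats the version of 30 nt was listed for 68.8% (67.4 to 70.2), that of 27 nt for 65.1% (63.6 to 66.5) and that of 33 nt for 31.4%. The values from 27 to 30 nt thus lay close together in both classes. In mRNA accessions the values were 51.4% (46.9 to 56.0) at 30 nt, 50.6% (46.1 to 55.1) at 27 nt and 25.3% at 33 nt. Ribosomal RNA had no such rise, with 60.1% at 27 nt, 48.5% at 30 nt and 36.3% at 33 nt, and other RNAs had 34.6% at 30 nt and 52.3% at 33 nt. MIWI-bound piRNAs are known to centre near the length at which unannotated and repeat sequences peaked, but no protein was assayed here.

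**Figure D4:**
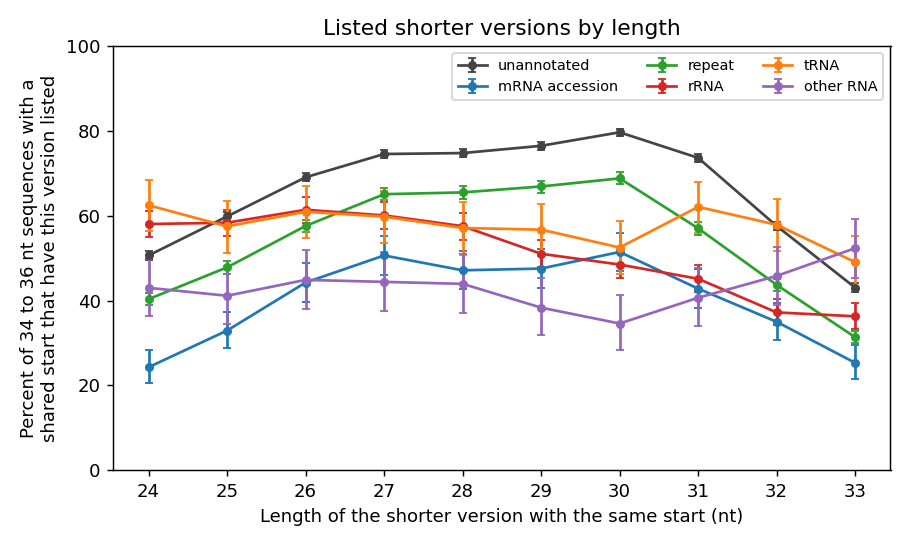
Share of the 34 to 36 nt sequences with a shared start for which the list also holds the exact shorter version of each length from 24 to 33 nt, one line per annotation class, with exact 95% intervals as bars. Unannotated sequences peak at 30 nt with 79.6%, and ribosomal RNA declines to 36.3% at 33 nt.

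The mRNA class was a mixture of a few accessions with many sequences and a long tail of accessions with 1. The 1546 sequences fell on 1171 accessions, 1003 of which had a single overlong sequence. Grouped by how many sequences of 24 to 33 nt an accession had, the overlong sequences differed widely. Accessions with under 50 held 515, and 39.6% (35.4 to 43.98) began with T, while 76.7% of the shorter sequences of the same accessions did. Accessions with at least 50 but under 200 held 499, with 58.7% (54.3 to 63.1) against 79.5%, and those with at least 200 but under 1000 held 310, with 72.6% (67.3 to 77.5) against 80.7%. The 33 accessions with 1000 or more held 222, with 83.3% (77.8 to 88.0) against 73.2%. A lower T share in the overlong sequences was thus found in the accessions with under 1000 shorter sequences and not in the richest. A shared start was found for 6.99%, 20.2%, 47.7% and 90.5% of the 4 groups, in ascending order. A rich accession also offers more starts to share, and its part in these values was not tested.

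Of the 10 accessions with most overlong sequences, 9 also had over 1000 shorter ones. Kcnk10, named by its potassium-channel accession, had 62, of which 53 began with T and 61 had a shared start, beside 14102 of 24 to 33 nt. On either strand, 32 of these 62 matched transcripts of the noncoding gene 5330409N07Rik, 1 matched Kcnk10 and 29 matched no spliced transcript. By overlong sense sequences 5330409N07Rik was not among the first 15 noncoding genes, the last of which had 23. The accession NM_001034902 had 37, and all of them matched the noncoding gene Gm5878, again on either strand. Gm5878 had 25 sense matches that fell on no other gene. Over all mRNA accessions, such sense matches numbered 27 in long intergenic noncoding genes, 4 in antisense genes and 2 in processed transcripts. Few were thus left for 5330409N07Rik, so most of its 32 matches were antisense. Asb1, of the ankyrin-repeat and SOCS-box family, had 17 with 17 shared starts. Prkca, a protein kinase C, also had 17, with 16 shared starts, and Cbx7, a Polycomb protein, had 11 with 11, and neither matched a spliced transcript of any gene. Tbl2 had 9, Ddx19b, an RNA helicase, and Arhgap20 had 7 each, and Ipmk, an inositol phosphate kinase, had 6. The exception was H2bc1, a testis histone H2B, with 6 beside 303 shorter ones, or 19.8 for every 1000. T was first in 3 of its 6 and all 6 had a shared start.

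Sequences that mapped to 1 position were matched to spliced transcripts, which also gave the strand. A transcript was matched by 21.7% (21.02 to 22.4) of the overlong ones, against 26.9% at 24 to 33 nt. With an mRNA accession it was 62.8% (60.3 to 65.3), against 69.0%, so many sequences named by an mRNA matched no spliced transcript. Over all classes, sense matches alone were 79.9% of the matches, against 85.3%. By class they were 82.7% (80.7 to 84.6) in unannotated sequences, against 82.4%, and 85.9% (83.6 to 88.1) in mRNA accessions, against 87.5%. In repeats they were 85.2% (81.2 to 88.7), against 87.4%. In ribosomal RNA they were 26 of 213, against 11.9%, while 134 of the 213 matched both strands and 53 antisense alone. The part of the class mix in the difference over all classes was not tested. Noncoding genes held 987 overlong sense sequences, 4.49 for every 1000 of 24 to 33 nt, and coding genes 1214, 1.85 for every 1000. In noncoding genes T was first in 81.2% (78.6 to 83.5) of overlong sequences, against 65.8% at 24 to 33 nt. In coding genes it was first in 68.2% (65.5 to 70.8), against 77.8%, so the totals of the 2 kinds of gene moved in opposite directions with length. The coding total joins genes with many and with few shorter sequences, which differed, as given below. Noncoding genes were not split in this way. A shared start was found for 92.4% (90.6 to 94.0) in noncoding and for 45.1% (42.3 to 48.0) in coding genes.

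The noncoding sequences came from few genes. Of the 987, 61.9% (58.8 to 64.9) lay in 10 genes, against 50.3% of the shorter sequences in their own first 10. These genes were ranked after the values were seen. On chromosome 7, 130 overlong sequences matched Gm21269 in sense and 11 in antisense, beside 23729 shorter sense ones. T began 104 of the 130, against 58.98% of the shorter ones, and 96.2% had a shared start. The adjoining gene Gm10619, transcribed the other way, had 67, with T first in 85.1% against 59.6%. Divergent pairs of precursor genes are known from mammalian pachytene piRNA loci.

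On chromosome 17, Gm49794 had 125 overlong sense sequences, with T first in 86.4% against 55.2% of 21032 shorter ones, and Gm10505 (27325035 to 27344833, plus strand) had 56, with 76.8% against 54.1%. 1700029M20Rik on chromosome 4 had 44, with T first in 93.2% against 58.5%, and 1700001L05Rik on chromosome 15 had 43, with 86.05% against 65.97%. Gm14244, whose sequences are shown above, had 36, all of them with a shared start, and T was first in 61.1% against 55.3%. In each of these 7 noncoding genes the T share was higher in overlong than in shorter sequences.

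Among coding genes, Cbl, which encodes a ubiquitin ligase (chromosome 9, 44142976 to 44234049, minus strand), had 37 overlong sense sequences and 0 antisense. T was first in 89.2% of them, against 71.8% of 5721 shorter ones, and 91.9% had a shared start. Nemp1, of the inner nuclear membrane, had 34, with T first in 88.2% against 72.8%, and 1700006A11Rik had 29, with 89.7% against 59.4%. Ago2, an Argonaute protein of the miRNA pathway, had 19, with 94.7% against 79.6%. D10Wsu102e had 17, all with T first, but 8 of them (47.1%) had a shared start although its 9093 shorter sequences were the most of these 5 genes. Of the first 15 coding genes, Eif4ebp2 (70% against 75.6%) and Stox1 (30% against 50.2%) had a lower T share in overlong sequences, with 10 each. So did Ddx19b (75% against 76.6%) and Fam206a (75% against 75.7%), with 8 each, while the rest of the 15 had a higher one. Stox1 was matched mostly in antisense, by 22 overlong and 3723 shorter sequences, beside 10 and 211 in sense.

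The first base differed with the place within the mRNA and with how many shorter sequences the gene had. Over coding genes with both untranslated regions, 568 of 1021 overlong sequences (55.6%, 52.5 to 58.7) began in the 3′ untranslated region, 364 in the coding sequence (35.7%) and 89 in the 5′ untranslated region (8.72%, 7.06 to 10.6). At 24 to 33 nt the shares were 55.2%, 38.8% and 5.99%. T was first in 78.3% (74.7 to 81.7) of the overlong sequences of the 3′ untranslated region, against 80.7% of the shorter ones. It was first in 61.5% (56.3 to 66.6) in the coding sequence, against 75.4%, and in 31.5% (22.0 to 42.2) in the 5′ untranslated region, against 66.6%. Genes with at least 200 shorter sense sequences held 488 of the 1021, and there T was first in 82.2% (78.5 to 85.5), against 79.3%. In genes with fewer it was first in 55.5% (51.2 to 59.8), against 76.7%. Within the coding sequence T was first in 78.1% (68.97 to 85.6) in the genes with at least 200, against 74.9%, and in 54.8% (48.5 to 60.99) in those with fewer, against 75.6%. Within the 3′ untranslated region it was first in 83.8% (79.7 to 87.4) in the genes with at least 200, against 80.7%, and in 68.02% (61.02 to 74.5) in those with fewer, against 80.6%. The 3′ untranslated region as a whole thus joins a higher and a lower value.

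Some annotations held other RNAs than their class name says, and T was first in the minority of these. Of the unannotated sequences that matched 1 gene, 30 matched mitochondrial ribosomal RNA, with T first in 5, and 15 matched mitochondrial transfer RNA, with T first in 3. By contrast, 601 matched long intergenic noncoding genes, with T first in 508 and a shared start in 575. Of the sequences with an mRNA accession, 16 matched small nucleolar RNA genes, which often lie in the introns of host genes, and T was first in 3 of them.

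In repeats, young L1 elements and IAP elements held more of the overlong sequences than of the shorter ones. Young L1, here all names that begin with L1Md_A, L1Md_T, L1Md_Gf or L1Md_F, gave 803 of 5785, 13.9% (12.9995 to 14.8). They gave 7.69% of the repeat sequences of 24 to 33 nt. The F names held a large part of the 803, with 257 in L1Md_F2, 91 in L1Md_F3 and 40 in L1Md_F. IAP elements gave 611, 10.6% (9.78 to 11.4) against 8.14%, and B2 and B3 SINEs gave 493, 8.52% (7.81 to 9.27) against 6.68%. Older L1 elements gave 742, 12.8% (11.97 to 13.7) against 13.1%. MaLR elements gave 633, 10.9% (10.1 to 11.8) against 12.6%, B1 SINEs 430, 7.43% (6.77 to 8.14) against 8.23%, and MMERVK10C with RLTR10 gave 134, 2.32% (1.94 to 2.74) against 3.47%. ETn and MusD elements gave 68, 1.18% (0.914 to 1.49) against 2.06%.

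The first base moved in opposite directions between these groups. Overlong young L1 sequences began with T in 47.9% (44.4 to 51.5) of cases, against 64.1% at 24 to 33 nt. B2 and B3 sequences did so in 55.6% (51.1 to 60.02), against 71.3%, and B1 sequences in 63.95% (59.2 to 68.5), against 74.5%. In MaLR elements it was first in 77.9% (74.4 to 81.1), against 72.2%. IAP elements had 61.9% (57.9 to 65.7), against 64.7%. A at position 10 reached 51.9% (47.8 to 55.9) in IAP elements, against 42.4%, and 55.3% (47.3 to 63.2) in MERVL with MT2, against 39.9%. Young L1 had 46.8% (43.3 to 50.3), against 44.6%, and MaLR elements 36.02% (32.3 to 39.9), against 34.9%. It was lower than at 24 to 33 nt in ETn and MusD, with 36.8% (25.4 to 49.3) against 43.1%, in MMERVK10C with RLTR10, with 39.6% (31.2 to 48.4) against 41.1%, and in B4, RSINE1 and ID_B1 together, with 27.8% (22.2 to 33.9) against 30.6%. The intervals of these 3 groups include the value at 24 to 33 nt. These groups were formed by name, and their members share sequence, so 1 copy can stand behind many of them.

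By name, IAPEz-int, the internal region of IAP elements, had most with 412, of which 242 began with T and 365 had a shared start, at a median of 592.5 positions. The L1 subfamilies L1Md_F2, L1Md_T and L1Md_A had 257, 225 and 174, at medians of 27, 103 and 94.5 positions, and T was first in 135, 108 and 80 of them. L1Md_F3 had 91, which was 10.5 for every 1000 shorter sequences, and T was first in 35. B2_Mm2 had 183 and B3 had 122, with T first in 95 and 85. B1_Mus1 had 113, B1_Mus2 and ID_B1 had 90 each, and T was first in 67, 58 and 69 of them. MurERV4_19-int, the eleventh name, was added after its values were seen: it had 85 with T first in 73, a shared start in 82 and a median of 1 position.

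Ribosomal RNA sequences were overlong at a similar rate in both subunits. LSU-rRNA_Hsa, the name for 28S RNA, had 596, which was 55.6 for every 1000 shorter sequences, and SSU-rRNA_Hsa, the name for 18S RNA, had 398, which was 55.5. The 5S RNA had 41, or 61.5 for every 1000. T was first in 150 of 596, 113 of 398 and 11 of 41. The shares with a shared start were 96.0% in LSU-rRNA_Hsa and 96.2% in SSU-rRNA_Hsa, and 70.7% in 5S.

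Transfer RNA sequences were led by 5 names out of 44. Glu-GAG_ had 44, Gln-CAG 21, Gly-GGY and Val-GTG 20 each and Gly-GGA 15, and a shared start was found for 43, 21, 18, 19 and 15 of them. Cutting of transfer RNA in its anticodon loop is known to leave fragments about this long. A run of T at the 3′ end is known as the mark left by RNA polymerase III where a precursor transcript ends. At least 3 T ended 33 of 106 transfer RNA sequences with 1 position (31.1%, 22.5 to 40.9), against 15.96% at 24 to 33 nt. They ended 7 of 187 with several positions (3.74%, 1.52 to 7.56), against 1.32%. Over all classes the share was 5.30%, against 2.79%.

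In the remaining RNAs, small nucleolar RNA names gave 140 of 303 sequences, 46.2% (40.5 to 52.0) against 24.3% at 24 to 33 nt, and miRNA hairpin names gave 40, 13.2% (9.60 to 17.5) against 24.6%. Spliceosomal RNA names gave 58, among them U2 with 17, U5 with 11, U1 with 10, U6 with 7 and U4 and u12_snRNA with 6 each. The general name snoRNA had 58, snmRNA had 7, and SNO1456, u24_snoRNA, z51_snoRNA and RNase_MRP_RNA had 5 each. The signal recognition particle RNA 7SLRNA had 10, and the Y1 RNA, listed as HY1, had 9 that all had a shared start. The name 4, which the file does not explain, had 29, and 17 of them ended in at least 3 T. The hairpin name mmu-mir-689-1 had 17, all with a shared start, and 10 of these 17 shared a stretch of 20 nt with a sequence annotated to ribosomal RNA. Of the other 286 sequences of the class, 2 did.

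The 3′ ends held a gap beyond position 33. Among all 19181 sequences, C followed by T was found at positions 32 and 33 from the 5′ end in 1824 (9.51%, 9.10 to 9.93). It was found at positions 33 and 34 in 0 of 19181, at positions 34 and 35 in 0 of 3903 and at positions 35 and 36 in 0 of 521. Taken as 3 counts of the total, these zeros allow shares of up to 0.0156%, 0.0769% and 0.576%, and the upper ends of the exact intervals are 0.0192%, 0.0945% and 0.706%. In the reverse order, T followed by C stood at positions 33 and 34 in 1860 sequences (9.70%). At 33 nt, 5208 of 47067 sequences (11.1%) ended in C followed by T.

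The last base showed the gap as well. C was last in 4966 of 15278 sequences of 34 nt (32.5%, 31.8 to 33.3) and in 821 of 3382 of 35 nt (24.3%, 22.8 to 25.8). It was last in 0 of 521 sequences of 36 nt, which allows up to 0.576% by 3 counts of the total and 0.706% by the exact interval, while A ended 184, T 195 and G 142. How the linkers read and were removed is not given in the sources used here, and their part in these ends, and thus in the lengths from 34 to 36 nt, was not tested.

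**Figure D5:**
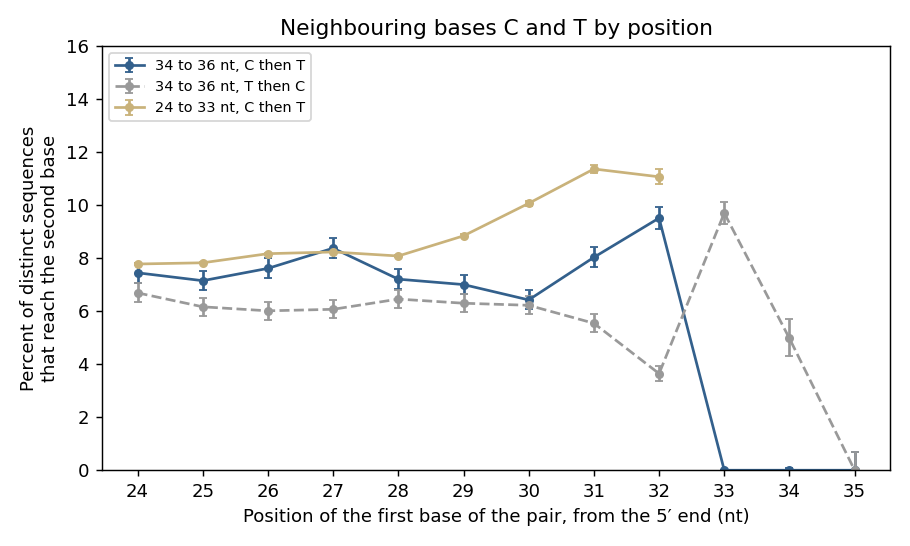
Share of distinct sequences with C then T (solid lines, 34 to 36 nt and 24 to 33 nt) or T then C (dashed line, 34 to 36 nt) by the position of the first base of the pair from the 5′ end, with exact 95% intervals as bars. In the 34 to 36 nt sequences C then T stands at 9.51% at position 32 and at 0 from position 33 on.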

How the data were processed

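Small RNA of mouse testes was size selected to 19 to 33 nt, ligated to linkers and amplified, per the labels. The authors deposited 1 table of distinct sequences; per the file headers it gives each sequence, a count of the genomic positions it maps to and an annotation. It holds 0 columns tied to a library, so depth is unknown. Which aligner, genome build and linkers were used is not given in the sources used here.

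Annotations were sorted by name into 6 classes. A start was shared when the first 24 nt began a listed sequence of 24 to 33 nt. Shares carry exact 95% intervals, and no p-value was computed. Sequences with 1 position were matched over their whole length to 141767 GENCODE M21 transcripts (GRCm38), 2435 of them to the sense strand of 1 gene only. Counting was tested on simulated sequences. Python 3.11.15, numpy 2.4.6, pandas 2.3.3 and scipy 1.17.1 were used.

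The members and lists were chosen with earlier results of these data known. Named were the first 10 repeat and mRNA names, the first 5 transfer RNA names, all ribosomal RNA names and other names with at least 5 sequences. Genes found by transcript matching, mitochondrial and nucleolar matches, runs of T, pairs of C and T and the stretch shared with ribosomal RNA were chosen after the values were seen.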

Additional observations from a re-analysis of the deposited data

How the results depend on the processing

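No paired analysis was possible because the labels give no replicate numbers and no sequence was tied to a library. Of 78 alternative values, 46 stayed within the 95% interval of the reported value and no class changed its place above or below 50% T first except mRNA accessions. With 35 and 36 nt only, T first was 75.3% in unannotated, 48.9% in mRNA, 60.3% in repeat and 44.4% in transfer RNA sequences; a single position was recorded for 87.3% of unannotated and 51.8% of repeat sequences; a shared start was found for 81.5% of unannotated, 24.01% of mRNA, 81.5% of transfer RNA and 61.8% of other RNA sequences; and the class shares were 43.2% unannotated, 12.9% ribosomal RNA, 2.08% transfer RNA and 2.61% other RNAs. With 1 position only, T first was 78.6% in unannotated and 72.5% in repeat sequences, and a shared start was found for 72.4% of repeat, 90.4% of ribosomal RNA and 77.4% of transfer RNA sequences. With the first 28 nt in place of 24, a shared start was found for 82.1% of unannotated, 26.7% of mRNA, 68.3% of repeat, 88.8% of ribosomal RNA, 79.5% of transfer RNA and 62.4% of other RNA sequences. With the first 20 nt it was 76.1% in repeats, with listed sequences of 25 to 32 nt 84.1% in unannotated sequences, and with the same annotation required 68.5% in repeats. With 1 count per first 24 nt the class shares were 54.0% unannotated, 8.46% mRNA, 4.64% ribosomal RNA and 1.34% transfer RNA. The cause of these shifts was not tested. At 36 nt, 3 to 181 sequences per class limit every share.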
